A study of Homo sapiens with 108 samples.

Results

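The early transcriptional response of HMV-I, an established human melanoma cell line, was examined 1 h after irradiation. The 12 arrays whose labels name HMV-I, a beam, and either 2 Gy at 1 h or 0 Gy were taken, of 108 arrays in the series. They form 4 groups of 3 arrays: cells 1 h after 2 Gy of carbon ions, cells of the carbon-ion set at 0 Gy, cells 1 h after 2 Gy of X-rays, and cells of the X-ray set at 0 Gy. Each beam has unirradiated cells of its own, so the beams share no array. No other agent or genetic change is given in the labels for any group. The series holds 6 melanoma lines measured in the same way, with a further collection at 3 h.

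Ionizing radiation breaks DNA and also sets off kinase signals within minutes. Immediate early genes such as FOS and CCN1 need no new protein for their transcription, because kinases act on factors already bound at their promoters, and their RNAs are short-lived. NF-kB is freed when its inhibitor is degraded, and it then induces that inhibitor, encoded by NFKBIA, together with cytokines such as IL6. The p53 protein is stabilized after DNA breaks and induces CDKN1A, PLK2 and others over the following hours. Carbon ions deposit energy along dense tracks, and X-rays spread it more evenly.

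The promoters of FOS, IL6 and NFKBIA are shown because these genes stand for the patterns found: FOS and IL6 changed differently between the beams, and NFKBIA rose after both. The sequences are RefSeq promoters on GRCh38.p14, from 250 bases before to 50 bases after the annotated start, with the first transcribed base counted as 1. Capitals mark matches to TGACG (the core of the site bound by CREB and ATF proteins) on either strand, to the binding motif of NF-kB, or to TATAAA on the printed strand. FOS lies at chr14:75278578-75278877 on the plus strand, with TGACG at -64 to -60 and TATAAA at -33 to -28. IL6 lies at chr7:22726950-22727249 on the plus strand, with TGACG at -215 to -211, its reverse complement at -162 to -158, and an NF-kB motif at -73 to -64. NFKBIA lies at chr14:35404700-35404999 on the minus strand, with an NF-kB motif at -81 to -72.
FOS: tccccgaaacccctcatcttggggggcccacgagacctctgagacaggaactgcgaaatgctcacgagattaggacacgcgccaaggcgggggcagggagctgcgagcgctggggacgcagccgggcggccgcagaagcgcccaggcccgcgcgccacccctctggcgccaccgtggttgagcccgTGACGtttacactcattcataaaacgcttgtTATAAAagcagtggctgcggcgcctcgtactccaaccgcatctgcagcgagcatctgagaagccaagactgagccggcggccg
IL6: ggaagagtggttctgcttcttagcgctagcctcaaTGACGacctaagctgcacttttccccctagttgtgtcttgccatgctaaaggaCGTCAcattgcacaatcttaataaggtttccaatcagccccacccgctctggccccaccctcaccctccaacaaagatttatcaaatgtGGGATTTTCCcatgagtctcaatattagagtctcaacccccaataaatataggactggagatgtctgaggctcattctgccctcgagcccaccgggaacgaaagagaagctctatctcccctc
NFKBIA: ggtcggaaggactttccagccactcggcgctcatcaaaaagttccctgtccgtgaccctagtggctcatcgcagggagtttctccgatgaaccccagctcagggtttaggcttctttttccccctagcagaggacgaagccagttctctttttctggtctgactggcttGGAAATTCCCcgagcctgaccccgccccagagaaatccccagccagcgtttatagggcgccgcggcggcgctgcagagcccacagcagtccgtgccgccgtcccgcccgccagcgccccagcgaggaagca
Of all 35116 promoters in the RefSeq table, 24.6% held TGACG on either strand, 11.3% the NF-kB motif and 7.33% TATAAA. A promoter entry was found for 9 of the 11 immediate early genes that rose after carbon ions. Among those 9, TGACG was found for FOS, FOSL2 and IER2, and the NF-kB motif for CCN2. These matches describe the letters in the window and are not measured binding.

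Values are spot intensities relative to about 1 at the middle of each array, and changes are log2 differences after quantile normalization, irradiated minus unirradiated, with limma's standard error. A probe is called at an adjusted p under 0.05 over all 29509 probes tested. Within a group, arrays correlated across probes at r = 0.9942 to 0.9968, and missing values numbered 1000 to 1437 per array. Nothing in the labels tells if replicate arrays are separate cultures, so the p-values measure the spread between these arrays, which may be technical. The carbon-ion and X-ray sets stood apart along the first principal component, with 57.93% of the variance over the 18 HMV-I arrays, 3 h included. The probes called between the unirradiated cells of the sets numbered 13821 (46.8%), 22.4% higher and 24.4% lower in the carbon-ion set. Beam and set therefore cannot be told apart in any level, and each beam is read against its own unirradiated cells. Each beam was used on 1 set only, so beam and set cannot be told apart in a difference between their changes either. Unirradiated carbon-ion array 1 lay apart from arrays 2 and 3 of its group along the first principal component (25.0, against 32.4 and 34.1). By correlation it was not set apart, as arrays 1 and 3 had the same lowest r within the group (0.9949). Results that depend on array 1 are marked. Of the melanocyte genes with a probe, 7 of 16 had a median intensity above 1. MITF (16.7), KIT (5.66) and RAB27A (22.4) were among them, while SOX10 (0.62), MLANA (0.47), TYR (0.67), TYRP1 (0.39) and PAX3 (0.60) lay below 1. The median of all spots was 1.021 to 1.048 per array, so at least as many spots lay above 1 as below. A count of 7 of 16 is not above that share, and the melanocyte identity was borne out in part at most. The summed intensity of these genes was 65.2 to 68.9 in carbon-irradiated cells against 59.9 to 62.3 in unirradiated cells of that set, and 56.9 to 64.3 after X-rays against 52.6 to 58.2, and its part in the results was not tested. Markers of other cells were above 1 for 3 of 10 fibroblast, 1 of 7 keratinocyte and 2 of 9 leukocyte genes. The brightest of each list were COL1A1 (3.51), EPCAM (11.75) and MS4A1 (1.81), and EPCAM was brighter than KIT.

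One hour after carbon ions, genes were ranked among those called, on the probe standing for each gene, with no overlap between the groups. The 10 of them that rose most were CYTL1, THBS1, FOS, FAM162B, KMT2C, ATF3, CCN1, TRIB1, CCN2 and APOC1, with changes of 1.19 to 0.58. CHAC1, TMEM208, DRD4 and ID1 fell most, with changes of -0.88 to -0.80. Of the probes tested, 1325 were called (4.49%), 642 higher (2.18%) and 683 lower (2.31%). One hour after X-rays 310 were called (1.05%), 138 higher (0.468%) and 172 lower (0.583%). The changes were small, with a median absolute size among called probes of 0.39 after carbon ions and 0.41 after X-rays, and 102 and 42 of them exceeded 1.5-fold. Each array measured bulk RNA, so a change in every cell and a change in a share of the cells cannot be told apart. The counts depended on single arrays. Without unirradiated carbon-ion array 1 the carbon-ion calls numbered 384, without irradiated arrays 1 or 3 they numbered 622 and 644, and without unirradiated array 2 they numbered 826. The X-ray calls numbered 99, 112 and 181 without unirradiated X-ray arrays 1, 2 or 3, and 121 and 206 without irradiated arrays 2 or 3.

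**Figure D1:**
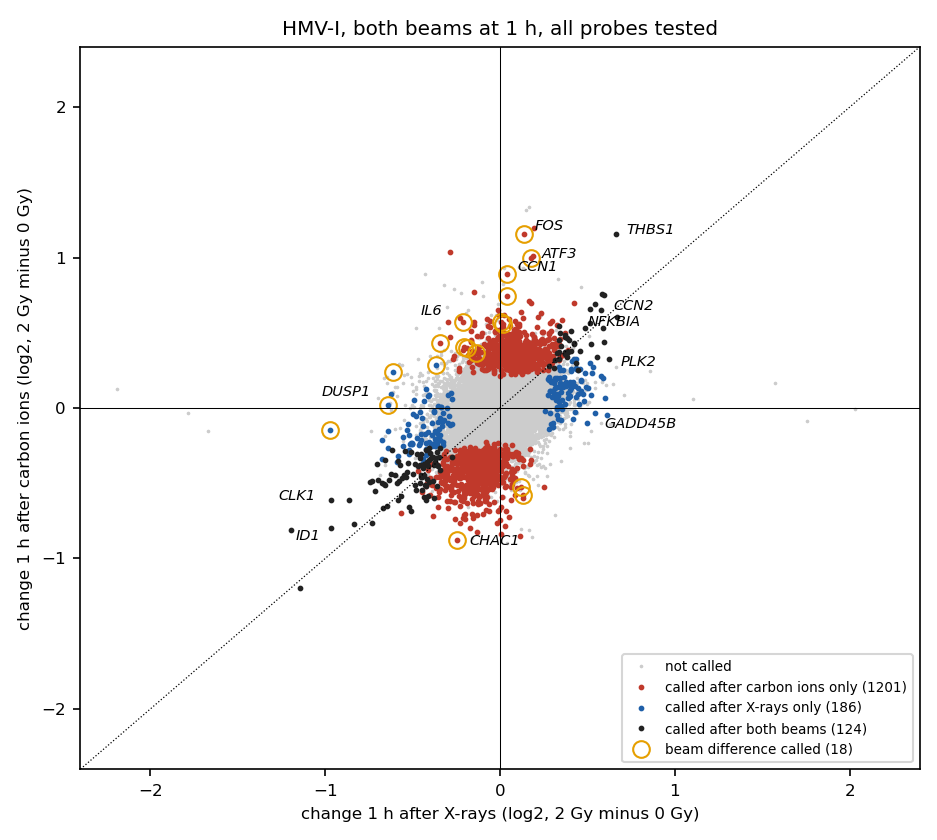
Change 1 h after X-rays (horizontal) and 1 h after carbon ions (vertical), log2 of 2 Gy minus the beam's own 0 Gy, for the 29509 probes tested. Filled points were called after carbon ions only (1201), X-rays only (186) or both (124), and circles mark the 18 probes whose beam difference was called. FOS, ATF3 and CCN1 lie high on the carbon-ion axis and near 0 on the X-ray axis, and the probes called after both lie in the lower left and upper right.

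Of 31 measured immediate early genes, 11 rose after carbon ions and none fell, with 26 positive changes and a median of 0.22, where the median of all probes was 0.0025. After X-rays 2 rose (CCN2 and FOSL2) and none fell, with 22 positive changes and a median of 0.060, where that of all probes was -0.0068. Over all probes, 2.18% were called higher after carbon ions and 0.468% after X-rays. The FOSL2 call after X-rays was lost without any 1 of the 6 X-ray arrays (adjusted p of up to 0.151). Other FOSL2 probes gave 0.51 and 0.41 after X-rays, both called (adjusted p = 0.00989 and 0.0278), and 0.18, not called. The probe at 0.51 was also called after carbon ions, at 0.57 (adjusted p = 0.00224). The carbon-ion count was 9 without unirradiated carbon-ion array 1, the lowest under any setting tried, and 12 at the highest. FOS, the partner of JUN in the AP-1 transcription factor, had intensities of 12.9, 12.5 and 11.2 after carbon ions, against 4.96, 5.29 and 6.2 in unirradiated cells of that set. It had 7.63, 7.39 and 7.93 after X-rays, against 5.96, 7.42 and 6.67 in unirradiated cells of that set. All 3 carbon-irradiated arrays lay far above their unirradiated arrays, and the X-ray groups overlapped. FOS rose by 1.15 ± 0.09, or 2.23-fold, after carbon ions (adjusted p = 8.22e-07), and its X-ray change was 0.14 ± 0.09 (adjusted p = 0.607).

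CCN1, a secreted matrix protein induced by growth factors and by mechanical load, had 59.8, 65 and 65.4 after carbon ions, against 31, 31.8 and 35.2 in unirradiated cells. It had 37.2, 37 and 36.5 after X-rays, against 35.9, 32 and 33.6 in unirradiated cells. The carbon-ion groups were well apart, and the X-ray groups lay close in intensity and overlapped after normalization. CCN1 rose by 0.89 ± 0.07 after carbon ions (adjusted p = 8.22e-07), and its X-ray change was 0.04 ± 0.07 (adjusted p = 0.893). ATF3, a stress-induced repressor of the ATF and CREB family, had 28.6, 24.3 and 36.7 after carbon ions, against 13.2, 14.8 and 15.7 in unirradiated cells. It had 39.2, 41.2 and 39.7 after X-rays, against 32.5, 33.8 and 33.8 in unirradiated cells. The irradiated arrays were all higher in both sets, by 1.00 ± 0.10 after carbon ions (adjusted p = 1.58e-05) and by 0.18 ± 0.10 after X-rays, which did not pass (adjusted p = 0.527). Unirradiated cells of the carbon-ion set held less ATF3 than those of the X-ray set, with a difference of -1.45.

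NR4A1, an orphan nuclear receptor, rose by 0.57 ± 0.07 after carbon ions, with 6.13, 6.2 and 6.51 against 4.03, 4.48 and 4.47 in unirradiated cells (adjusted p = 1.52e-04). Its X-ray change was 0.01 ± 0.07, with overlapping groups. ZFP36, which speeds the decay of AU-rich messenger RNAs including those of cytokines, rose by 0.52 ± 0.07 after carbon ions (adjusted p = 5.54e-04), and its X-ray change was 0.09 ± 0.07. The transcription factors CSRNP1 and FOSL1 rose by 0.49 and 0.41 after carbon ions (adjusted p = 0.0032 and 0.00174). These carbon-ion calls, with those for FOS, CCN1 and ATF3, were kept when any 1 of the 12 arrays was left out. IER2 and KLF6 rose by 0.30 and 0.30 and lost their calls without any of several carbon-ion arrays, among them unirradiated arrays 1 and 2 and irradiated array 1 (adjusted p of up to 0.114 and 0.16). A second KLF6 probe was called after both beams, with 0.33 and 0.34 (adjusted p = 0.023 and 0.0446), and a second FOSL1 probe gave 0.21 after carbon ions and was not called. EGR1, a zinc-finger factor often used as a marker of this class, had a carbon-ion change of 0.25 ± 0.11 and an X-ray change of 0.00 ± 0.11, neither of which passed (adjusted p = 0.224 and 0.994). For NR4A3, the brighter probe gave -0.13 after carbon ions and a second probe 0.56, of which the second was called (adjusted p = 9.57e-04).

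**Figure D2:**
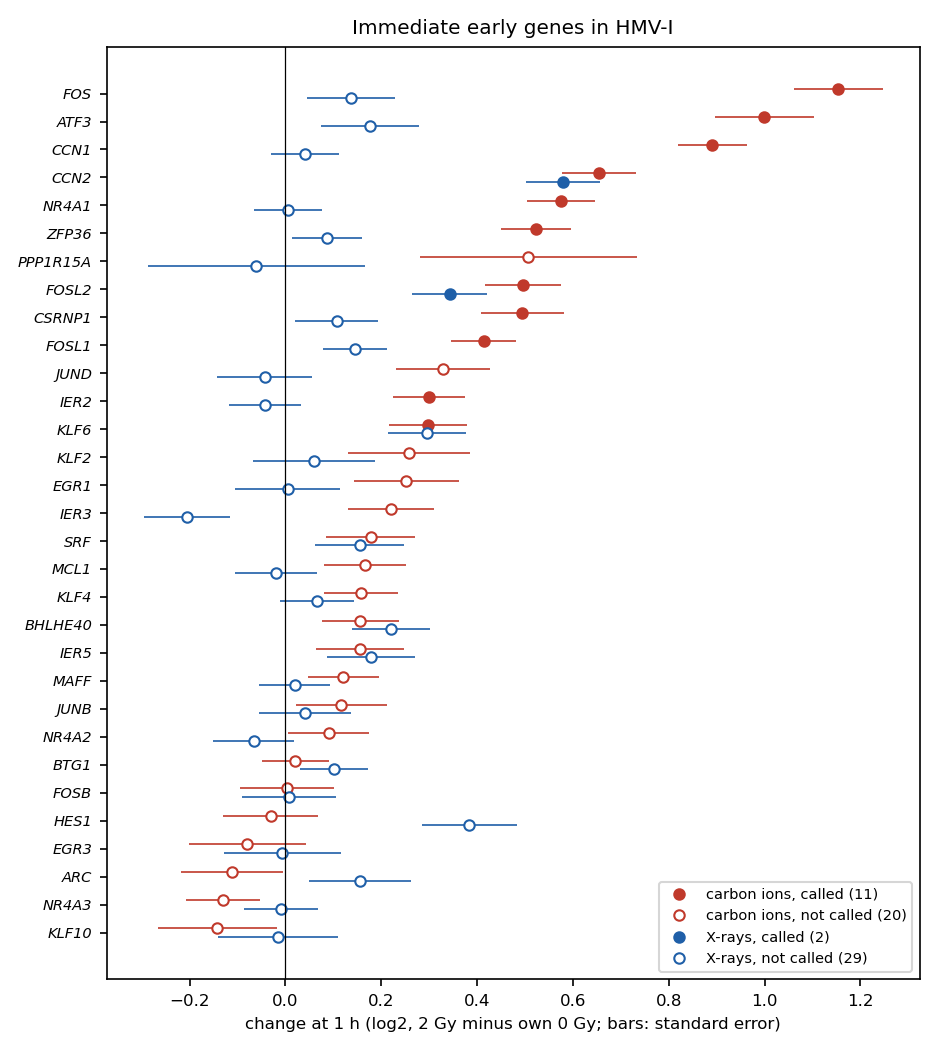
Change at 1 h (log2, with standard error) for the 31 measured immediate early genes, after carbon ions (red) and X-rays (blue), each against its own 0 Gy arrays. Filled points passed at an adjusted p under 0.05: 11 after carbon ions and 2 after X-rays. FOS, ATF3 and CCN1 have the highest carbon-ion values, and only CCN2 and FOSL2 are filled for both beams.

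The beams were then compared, as the carbon-ion change minus the X-ray change. Such a difference cannot be told apart from a difference between the sets in how they respond. Of 29509 probes, 18 were called (0.061%), 15 higher (0.0508%) and 3 lower (0.0102%), and 14 of the 18 carried 1 gene name. The named genes higher were FOS, SPRTN, CCN1, FAM174A, ATF3, IL6, DUSP1, CD83, RGS16, PLPP5, NR4A1, OTUD1 and TIGAR, and the 1 lower was CHAC1. Between the unirradiated sets, CD83 (-1.215), RGS16 (-0.96), FAM174A (-0.65) and TIGAR (-0.60) were called lower in carbon-ion cells. So were PLPP5 (-0.55), FOS (-0.47), CCN1 (-0.25), ATF3, IL6 and CHAC1. OTUD1 was called higher there (0.43), and SPRTN (0.08), DUSP1 (0.14) and NR4A1 (-0.12) were not called. The part of these differences between unirradiated cells in the beam differences was not tested. FOS differed by 1.02 ± 0.13 (95% interval half-width 0.27, adjusted p = 0.00237) and CCN1 by 0.85 ± 0.10 (0.21, adjusted p = 0.00136). Both calls held without any 1 of the 12 arrays and under all 8 other settings tried. ATF3 differed by 0.82 ± 0.14 and NR4A1 by 0.57 ± 0.10 (adjusted p = 0.0445 for both). Of the 31 immediate early genes, FOS, CCN1, ATF3 and NR4A1 were called for the beam difference, 4 in all, where 0.061% of all probes were.

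IL6, the cytokine interleukin 6, had 31.1, 32.2 and 35.6 after carbon ions, against 19.2, 22.8 and 22 in unirradiated cells. It had 43.5, 33.1 and 42.5 after X-rays, against 41.6, 42.8 and 44.4 in unirradiated cells. It was higher on all 3 carbon-irradiated arrays, while the X-ray groups overlapped in intensity and, after normalization, all 3 irradiated arrays were lower. IL6 rose by 0.57 ± 0.07 after carbon ions (adjusted p = 2.25e-04), its X-ray change was -0.21 ± 0.07 (adjusted p = 0.212), and the beams differed by 0.78 ± 0.10 (adjusted p = 0.00291). That difference held without any 1 array, and was not called with median centring or with values as deposited (adjusted p of up to 0.111). Unirradiated cells of the carbon-ion set held less IL6 than those of the X-ray set, with a difference of -1.24.

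DUSP1, a phosphatase that switches off MAP kinases, had 9.46, 10.1 and 9.14 after carbon ions, against 8.79, 9.57 and 9.98 in unirradiated cells, and these groups overlapped. It had 5.21, 4.86 and 5.19 after X-rays, against 6.74, 8.16 and 7.98 in unirradiated cells, with every irradiated array lower. DUSP1 fell by 1.56-fold after X-rays (-0.64 ± 0.08, adjusted p = 4.56e-04), its carbon-ion change was 0.02 ± 0.08 (adjusted p = 0.941), and the beams differed by 0.66 ± 0.12 (adjusted p = 0.0445). SPRTN, a protease that removes proteins crosslinked to DNA, fell after X-rays (-0.61 ± 0.10, adjusted p = 0.00381), as did FAM174A (-0.97 ± 0.11, adjusted p = 5.17e-05). Their carbon-ion changes of 0.24 and -0.15 did not pass (adjusted p = 0.208 and 0.512), and the beams differed by 0.85 and 0.83. CD83, an immunoglobulin-family surface protein, fell after X-rays (-0.37, adjusted p = 0.0388), and its carbon-ion change of 0.29 did not pass (adjusted p = 0.0571). The X-ray call of CD83 was lost without any 1 of the 6 X-ray arrays (adjusted p of up to 0.144).

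RGS16, which shortens G-protein signalling, and PLPP5, a lipid phosphatase, rose after carbon ions by 0.41 and 0.40, and their X-ray changes were -0.21 and -0.19. OTUD1, a deubiquitinase, had 30.7, 28.2 and 32.5 after carbon ions, against 18.4, 20.1 and 21.6 in unirradiated cells. It rose by 0.56 ± 0.07 (adjusted p = 1.43e-04), and its X-ray change was 0.02 ± 0.07. CHAC1, which degrades glutathione and is induced in the integrated stress response, had 3.09, 2.85 and 3.28 after carbon ions, against 5.65, 5.58 and 5.58 in unirradiated cells. It had 30.7, 27.5 and 30.2 after X-rays, against 33.1, 30.9 and 33.8 in unirradiated cells. The irradiated arrays were lower in both sets, with changes of -0.88 ± 0.08 after carbon ions (adjusted p = 1.38e-06) and -0.24 ± 0.08 after X-rays, which did not pass (adjusted p = 0.136). The beams differed by -0.63 ± 0.11 (adjusted p = 0.0445), and the difference between unirradiated carbon-ion and X-ray cells was -2.79. Apart from FOS, CCN1 and IL6, each of the 14 named beam differences lost its call in 9 to 11 of the 12 fits that left out 1 array, and their adjusted p reached 0.163. The count of called probes ran from 3 without any of 5 single arrays (unirradiated X-ray array 2, irradiated X-ray array 2, unirradiated carbon-ion arrays 1 or 2, irradiated carbon-ion array 1), over 4 to 10 without any of 6 others, to 36 without irradiated X-ray array 1.

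**Figure D3:**
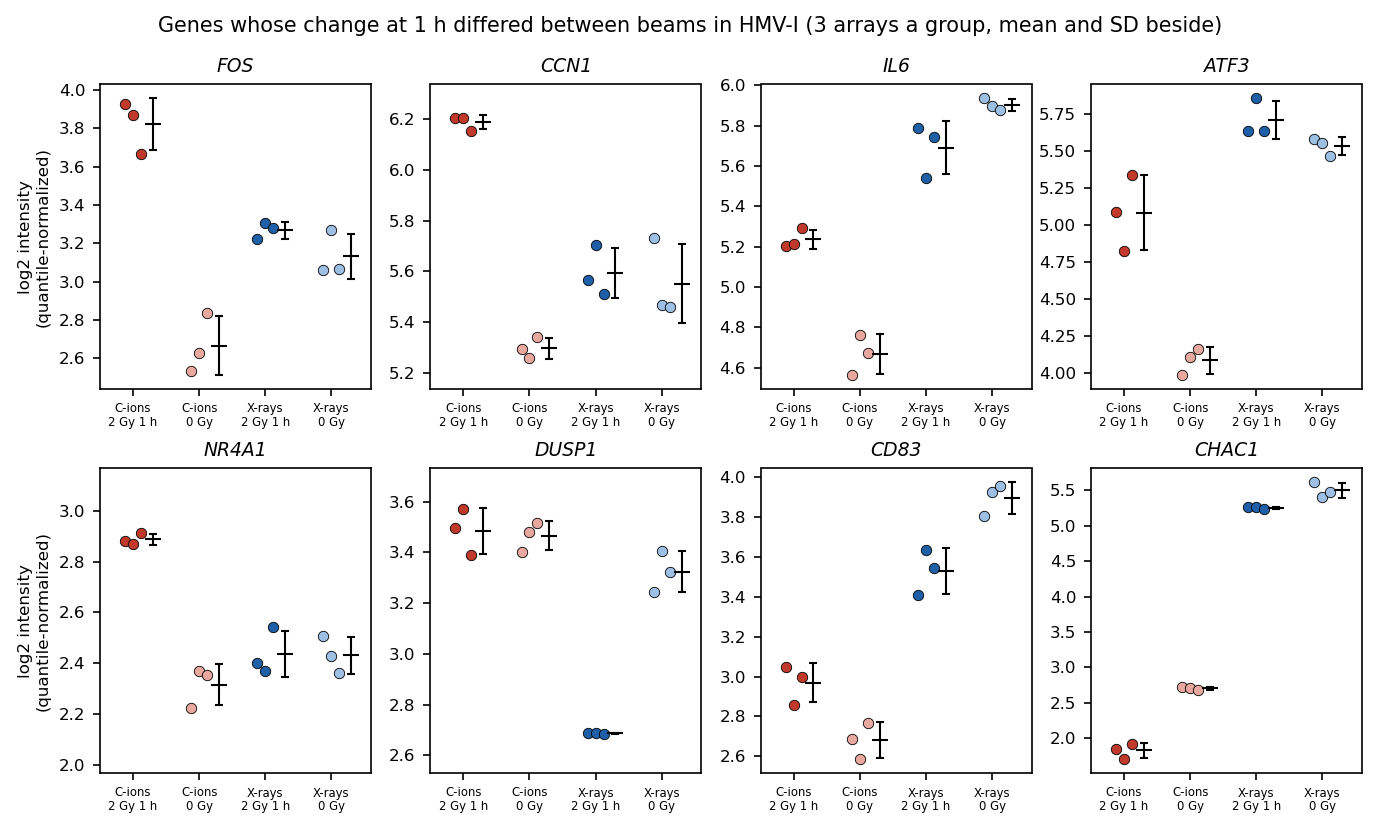
Quantile-normalized log2 intensity on each of the 12 arrays for 8 genes whose beam difference was called, in the order carbon ions 2 Gy 1 h, carbon ions 0 Gy, X-rays 2 Gy 1 h, X-rays 0 Gy, with the group mean and SD (n = 3) beside the points. FOS, CCN1, IL6, ATF3 and NR4A1 are raised on all 3 carbon-irradiated arrays, DUSP1 and CD83 are lowered on all 3 X-irradiated arrays, and CHAC1 differs most between the unirradiated sets.

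Changes called after both beams and in the same direction numbered 124 of 29509 probes (0.42%), 40 higher (0.136%) and 84 lower (0.285%), and no probe was called in opposite directions. They made up 9.358% of the carbon-ion calls and 40% of the X-ray calls. The count was 58 without unirradiated X-ray array 1, 67 to 82 without unirradiated X-ray arrays 2 or 3, irradiated X-ray array 2, unirradiated carbon-ion arrays 1 or 2 or irradiated carbon-ion array 1, and at most 105 without any of the rest. Of the carbon-ion calls, 84% had an X-ray change of the same sign. The X-ray changes of the carbon-ion calls were smaller, with a median of 0.083 over the rises and -0.15 over the falls. The named genes among the shared calls were 18 higher and 24 lower.

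Among the shared rises, THBS1, a matrix glycoprotein that activates latent TGF-beta, had 3.59, 3.16 and 4.54 after carbon ions, against 1.82, 1.74 and 1.81 in unirradiated cells. It had 2.19, 1.76 and 1.79 after X-rays, against 1.3, 1.24 and 1.22 in unirradiated cells. All irradiated arrays were higher, by 1.16 ± 0.11 after carbon ions and 0.66 ± 0.11 after X-rays (adjusted p = 5.13e-06 and 0.00307). A second, dimmer THBS1 probe had changes of 0.18 and 0.29, neither of which passed (adjusted p = 0.588 and 0.455). CCN2, the connective tissue growth factor, had 79.6, 77.6 and 94 after carbon ions, against 47.1, 45.3 and 56.7 in unirradiated cells. It had 45.6, 37.7 and 43.7 after X-rays, against 26, 27.4 and 26.9 in unirradiated cells. CCN2 rose by 1.57-fold after carbon ions and 1.49-fold after X-rays (adjusted p = 9.75e-05 and 5.66e-04), and the beams differed by 0.08 ± 0.11 (95% half-width 0.23).

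NFKBIA, the NF-kB inhibitor, had 35.7, 39 and 39.6 after carbon ions, against 25.1, 26.6 and 27.9 in unirradiated cells. It had 35.1, 33.2 and 35.1 after X-rays, against 25.9, 23.2 and 26.1 in unirradiated cells. The groups did not overlap in either set, with changes of 0.47 ± 0.08 and 0.38 ± 0.08 (adjusted p = 0.00171 and 0.0151). The X-ray call was lost without unirradiated X-ray arrays 2 or 3 or irradiated array 2 (adjusted p of up to 0.0978). IRF1, an interferon regulatory factor and NF-kB target, rose by 0.34 and 0.39 (adjusted p = 0.017 and 0.0204), and IFIT3, an interferon-stimulated gene, by 0.51 and 0.41 (adjusted p = 0.00122 and 0.013). A second IRF1 probe gave -0.02 and 0.12, neither called. IRF1 and IFIT3 both lost their X-ray calls without unirradiated X-ray array 1 or irradiated X-ray array 2, IRF1 also without unirradiated X-ray array 2 (adjusted p of up to 0.0961), and IRF1 lost its carbon-ion call without unirradiated carbon-ion array 1 or irradiated array 2 (up to 0.115).

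Among the shared falls, ID1, an inhibitor of basic helix-loop-helix factors and a direct target of BMP signalling, had 6.28, 5.54 and 6.06 after carbon ions, against 10.7, 9.56 and 11.1 in unirradiated cells. It had 4.84, 4.08 and 3.8 after X-rays, against 7.44, 8.14 and 7.93 in unirradiated cells. Every irradiated array lay below its own unirradiated arrays, and ID1 changed by -0.80 ± 0.08 for carbon ions and -0.97 ± 0.08 for X-rays (adjusted p = 2.07e-05 and 2.90e-06). CLK1, a kinase that phosphorylates SR splicing factors, had 6.89, 7.98 and 7.86 after carbon ions, against 11.5, 11.5 and 11.7 in unirradiated cells. It had 5.73, 5.99 and 5.49 after X-rays, against 9.59, 10.7 and 11.7 in unirradiated cells. It fell by 1.52-fold after carbon ions and 1.95-fold after X-rays (adjusted p = 7.67e-04 and 4.14e-06).

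The related kinase CLK4 changed by -0.58 and -0.56 (adjusted p = 0.0046 and 0.0112), and CCNL2, a cyclin found in splicing speckles, by -0.50 and -0.46 (adjusted p = 0.00115 and 0.00379). The X-ray call of CLK4 was lost without unirradiated X-ray array 1 (adjusted p = 0.0778). Of 26 measured splicing kinases and factors, 3 fell after carbon ions (CLK1, CLK4 and NEAT1, a long noncoding RNA that scaffolds paraspeckles) and 2 after X-rays (CLK1 and CLK4), and none rose. The medians of that list were -0.031 and 0.011. Over all probes, 2.31% were called lower after carbon ions and 0.583% after X-rays. The counts take 1 probe per gene. Another SRSF1 probe fell by 0.64 after X-rays (adjusted p = 8.50e-04) and gave -0.15 after carbon ions, not called. A further SRSF1 probe gave -0.04 after carbon ions and -0.02 after X-rays, neither called. NEAT1 fell by 0.66 after carbon ions and lost its call without unirradiated arrays 1 or 2 or irradiated arrays 2 or 3 (adjusted p of up to 0.211). A second NEAT1 probe fell by 0.57 after carbon ions and was called (adjusted p = 0.0056). The pseudogene AHSA2P fell as well, with -0.68 and -0.51 (adjusted p = 6.59e-05 and 0.00189), and a second AHSA2P probe gave -0.12 and -0.02, neither called.

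**Figure D4:**
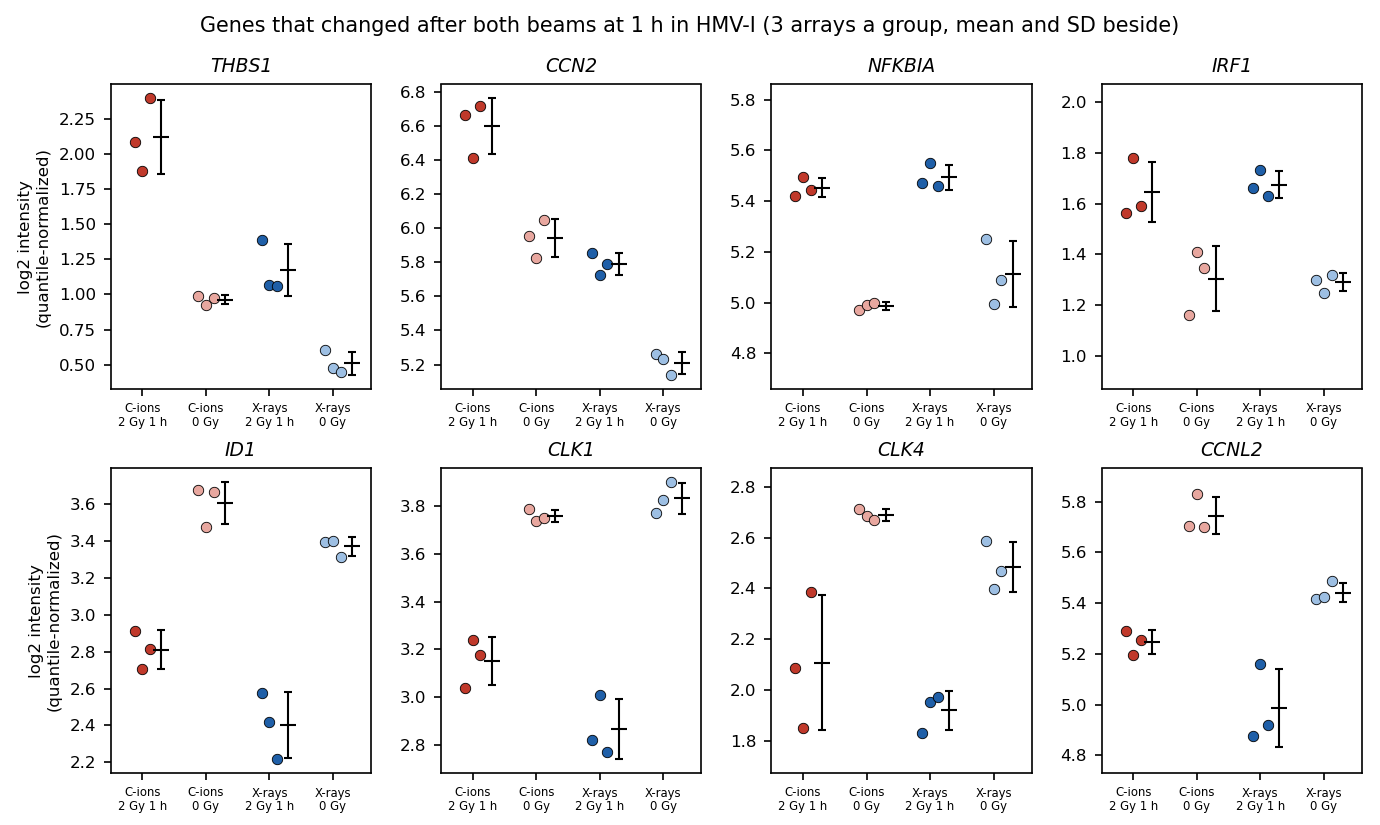
Quantile-normalized log2 intensity on each of the 12 arrays for 8 genes called after both beams, in the order carbon ions 2 Gy 1 h, carbon ions 0 Gy, X-rays 2 Gy 1 h, X-rays 0 Gy, with the group mean and SD (n = 3). THBS1, CCN2, NFKBIA and IRF1 are higher and ID1, CLK1, CLK4 and CCNL2 lower on every irradiated array than on the unirradiated arrays of the same set.

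Of 22 measured NF-kB targets and feedback genes, 4 rose after carbon ions (NFKBIA, IRF1, REL and TNFAIP3) and none fell, with a median of 0.13. After X-rays 3 rose (NFKBIA, IRF1 and GADD45B) and 1 fell (CD83), with a median of 0.039. Over all probes 2.18% were called higher after carbon ions, and 0.468% higher and 0.583% lower after X-rays. A second REL probe changed by 0.07 after carbon ions and was not called. The carbon-ion count was 1 without unirradiated carbon-ion array 1, and the X-ray count of rises was 1 without unirradiated X-ray array 2. GADD45B, a stress sensor upstream of p38, had 27.8, 31.9 and 30.2 after carbon ions, against 27.6, 29.5 and 31 in unirradiated cells. It had 42.7, 46.8 and 44.7 after X-rays, against 28.4, 30.6 and 28.6 in unirradiated cells. It rose after X-rays by 0.54 ± 0.08 (adjusted p = 0.00139), its carbon-ion change was -0.04 ± 0.08 (adjusted p = 0.87), and the beam difference of -0.58 ± 0.11 did not pass (adjusted p = 0.0628). A second GADD45B probe gave -0.17 and -0.02, with neither called.

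Cytokine and chemokine genes rose after carbon ions in 4 of 10 measured (IL6, CXCL8, CCL2 and EREG) and fell in none, with a median of 0.18, where 2.18% of all probes were called higher. After X-rays none was called, the median was -0.013 and 5 of 10 changes were positive. CXCL8, the neutrophil attractant interleukin 8, had 8.44, 6.74 and 9.19 after carbon ions, against 6.00, 5.51 and 6.08 in unirradiated cells. It had 9.02, 7.43 and 9.71 after X-rays, against 9.64, 9.44 and 11 in unirradiated cells. It rose by 0.47 ± 0.11 after carbon ions (adjusted p = 0.018), its X-ray change was -0.28 ± 0.11 (adjusted p = 0.277), and the difference of 0.75 ± 0.16 did not pass (adjusted p = 0.0775). EREG, a ligand of the EGF receptor, rose by 0.43 and CCL2, which attracts monocytes, by 0.47 after carbon ions (adjusted p = 0.00382 and 0.0125). Without unirradiated carbon-ion array 1 the count was 2, and CXCL8 and CCL2 lost their calls there and without irradiated array 3, CXCL8 also without unirradiated array 2 or irradiated array 1 (adjusted p of up to 0.0972).

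Of 28 measured p53 targets, 6 rose after carbon ions (CDKN1A, GADD45A, PLK2, PLK3, TIGAR and XPC) and none fell, with a median of 0.10. After X-rays 1 rose (PLK2) and none fell, with a median of -0.00045. Over all probes 2.18% were called higher after carbon ions and 0.468% after X-rays. PLK2, a kinase of centriole duplication, had 30.3, 31.4 and 30.3 after carbon ions, against 24.1, 23.1 and 23 in unirradiated cells. It had 21.3, 17 and 22.8 after X-rays, against 11.4, 13 and 13.8 in unirradiated cells. It rose by 0.33 ± 0.08 after carbon ions and 0.62 ± 0.08 after X-rays (adjusted p = 0.0227 and 3.74e-04), and the beam difference of -0.29 ± 0.11 did not pass (adjusted p = 0.439). CDKN1A, the cyclin-dependent kinase inhibitor p21, had 63, 75.3 and 67.3 after carbon ions, against 48.8, 50.1 and 54 in unirradiated cells, a change of 0.29 ± 0.07 (adjusted p = 0.0286). Its X-ray change was 0.09 ± 0.07 (adjusted p = 0.684), and MDM2, the ubiquitin ligase of p53, had changes of 0.14 and -0.00 with neither called. TIGAR, a phosphatase of sugar metabolism, rose by 0.37 ± 0.06 after carbon ions (adjusted p = 0.00318). A second TIGAR probe gave 0.16 after carbon ions and a beam difference of 0.09, neither called (adjusted p = 0.209 and 0.857), and a second XPC probe changed by 0.03 after carbon ions (adjusted p = 0.936). Probes of BAX and PHLDA3 other than those standing for the genes rose after carbon ions by 0.38 and 0.40 (adjusted p = 0.0274 and 0.0297). A further BAX probe gave 0.01, not called. The carbon-ion count of p53 targets was 1 without irradiated carbon-ion array 1, and only TIGAR of the 6 kept its call without every single array.

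Other lists held few calls. Over all probes, 2.18% were called higher and 2.31% lower after carbon ions, and 0.468% and 0.583% after X-rays. Between the unirradiated sets, 22.4% of all probes were called higher and 24.4% lower in carbon-ion cells. Of 15 TGF-beta and BMP targets, CCN2 rose and ID1 fell after both beams, and SNAI2, a repressor of E-cadherin, rose after X-rays (0.48 ± 0.07, adjusted p = 8.50e-04), with a carbon-ion change of 0.05 and a beam difference of -0.43 that did not pass (adjusted p = 0.123). Of 28 genes of G2 phase and mitosis, PIF1, a DNA helicase, and PTTG1, securin, fell after carbon ions (-0.54 and -0.29), and NUSAP1 and DLGAP5, both of the spindle, rose after X-rays (0.42 and 0.33). Of these, PIF1 alone kept its call without every single array, and between the unirradiated sets 24 of the 28 were higher in carbon-ion cells, with a median difference of 0.72. Of 12 heat shock genes, HSPA1L and DNAJB1 fell after carbon ions (-0.51 and -0.35) and none was called after X-rays, and all 12 were higher in unirradiated carbon-ion cells, with a median difference of 1.29. A second HSPA1L probe changed by 0.10 after carbon ions, which did not pass (adjusted p = 0.662). Of 17 genes of the unfolded protein and integrated stress response, ATF3 and TRIB3 rose and CHAC1 and HERPUD1 fell after carbon ions, and 15 of the 17 were lower in unirradiated carbon-ion cells, with a median difference of -0.95. In the lists described before, 4 of the 31 immediate early genes were higher and 13 lower in unirradiated carbon-ion cells. Of the 22 NF-kB genes 2 were higher and 8 lower, of the 10 cytokine and chemokine genes 2 and 6, and of the 28 p53 targets 7 and 15. The part of these differences between unirradiated cells in the responses was not tested. On the 1 probe that stands for each gene, no call was made after either beam among 12 histone genes, 13 ribosomal protein genes, 10 NRF2 targets or 13 hypoxia targets. RPL35A, a ribosomal protein gene outside that list, fell after both beams, with -0.66 and -0.52 (adjusted p = 0.00205 and 0.0234), and its X-ray call was lost without unirradiated X-ray arrays 2 or 3 or irradiated arrays 1 or 2 (adjusted p of up to 0.108). Among 23 genes of DNA damage sensing and repair, NBN, of the MRN complex that binds broken ends, rose by 0.26 after carbon ions. Second probes of NBN and HERPUD1 gave 0.22 and -0.03 after carbon ions, neither called. Probes of XBP1 other than the one standing for the gene were called after carbon ions in opposite directions. They gave -0.40 and 0.43 (adjusted p = 0.0167 and 0.0101), and neither was called after X-rays. A second probe of the hypoxia target LDHA fell by 0.42 after carbon ions (adjusted p = 0.00792) and gave -0.22 after X-rays, not called. The carbon-ion calls of NBN, DNAJB1, TRIB3 and HERPUD1 were each lost without unirradiated carbon-ion array 1 or irradiated array 3 and at least 2 other arrays of that set (adjusted p of up to 0.155, 0.232, 0.123 and 0.172).

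Further named changes had no place in these lists. TRIB1, a pseudokinase that directs a ubiquitin ligase to its substrates, rose by 0.70 ± 0.07 after carbon ions, with 5.73, 5.97 and 5.91 against 3.6, 3.93 and 3.73 in unirradiated cells (adjusted p = 1.55e-05), and its beam difference of 0.52 did not pass (adjusted p = 0.0571). A second TRIB1 probe changed by 0.11, which did not pass. CYTL1, a secreted cytokine-like protein, rose by 1.19 ± 0.25 after carbon ions (adjusted p = 0.0101), a call lost without irradiated carbon-ion array 3 (adjusted p = 0.0597). The calls of FAM162B and TMEM208 were lost without unirradiated carbon-ion array 1 or irradiated array 2, that of FAM162B also without irradiated array 1 and that of TMEM208 without irradiated array 3 (adjusted p of up to 0.139 and 0.203). KMT2C, a histone methyltransferase, rose by 1.01 on 1 probe and changed by 0.01 on another. DRD4, a dopamine receptor, fell by 1.74-fold after carbon ions (adjusted p = 0.00500). After X-rays, TLR6, a receptor for bacterial lipopeptides, rose by 0.56 and ARID5B, a chromatin regulator, by 0.48 (adjusted p = 0.00418 and 0.00381).

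The HMV-I changes were set beside those of the other 5 lines, with 1 mean per line. After carbon ions, HMV-I had the highest change of the 6 lines for FOS (1.15, others -0.30 to 0.75), NR4A1 (0.57, others -0.10 to 0.01), IL6 (0.57, others -0.09 to 0.13) and TRIB1 (0.70, others -0.68 to 0.05). After X-rays it had the lowest change for DUSP1 (-0.64, others -0.33 to 0.58), ID1 (-0.97, others -0.62 to 0.16) and NFKBIA (0.38, others 0.55 to 0.87). None of these 7 differences passed (adjusted p = 1.00 for FOS, 0.256 for NR4A1, 0.802 for IL6, 0.656 for TRIB1, and 0.999 for each X-ray gene), so none is shown to be particular to HMV-I. Of 32060 probes, 6 were called for carbon ions (0.0187%) and 2 for X-rays (0.00624%) in HMV-I against the rest, and 1186 and 1251 had an unadjusted p under 0.05. The calls numbered 10 to 15 and 6 to 9 without the arrays of any 1 replicate number. The 1 named gene among the calls was GAREM1, an adaptor of EGF receptor signalling, at 1.32 in HMV-I and -0.20 on average in the others (adjusted p = 0.0297). With median centring no probe was called higher in HMV-I after carbon ions, so that call was lost, and the test sets 1 line against 5.

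**Figure D5:**
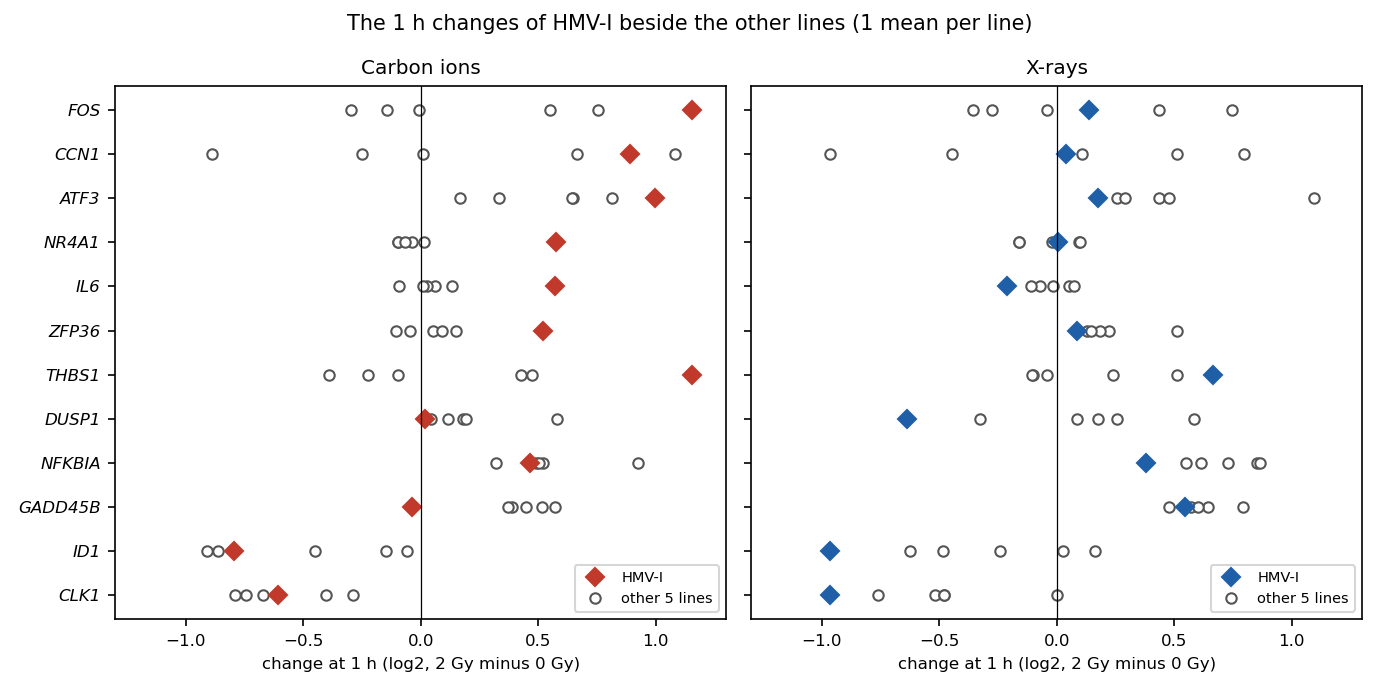
Change at 1 h (log2, 2 Gy minus 0 Gy) for 12 genes in HMV-I (filled) and in each of the other 5 lines (open), after carbon ions on the left and X-rays on the right. HMV-I has the highest carbon-ion values for FOS, NR4A1, IL6 and THBS1 and the lowest X-ray values for DUSP1, ID1 and NFKBIA, and none of these differences passed.

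At 3 h the arrays share their unirradiated cells with the 1 h comparison, so the values are set side by side without a test of likeness. FOS was at 1.15 at 1 h and -0.38 at 3 h after carbon ions, and at 0.14 and -0.73 after X-rays. CCN1 was at 0.89 and 0.17 after carbon ions, and ATF3 at 1.00 and 0.27, so that the carbon-ion values of all 3 were lower at the later time. After X-rays CCN1 was at 0.04 and -0.71, and ATF3 was at 0.18 and 0.31. Both were called at 3 h after X-rays (adjusted p = 6.27e-06 and 0.0484). CLK1 was at -0.61 and -0.14 after carbon ions and at -0.97 and 0.04 after X-rays. ID1 was at -0.80 and -0.68, and at -0.97 and -1.06, and so remained low. CHAC1 was at -0.88 at 1 h and 1.00 at 3 h after carbon ions. At 3 h, 4186 probes were called after carbon ions (14.2%; 7.73% higher and 6.46% lower) and 4279 after X-rays (14.5%; 7.1% higher and 7.4% lower), and of the 31 immediate early genes 3 rose and 4 fell after carbon ions, and 6 rose and 2 fell after X-rays.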

How the data were processed

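Each sample's RNA was labelled with biotin and hybridized to a single-colour CodeLink whole-genome array, per the labels. The deposited table gives spot intensity on a linear scale, about 1 at the middle of each array. The sources used here name neither the software behind that scaling nor a build. Values were taken to log2 and quantile-normalized over all 108 arrays. Of 54359 probes, 32060 were kept (at most 10% of values missing, mean above the 40th percentile, -0.401, and a value in every group), and 29509 had all 18 HMV-I values. Names came from the platform annotation given with the arrays (23472 probes with 1 symbol, 905 with several, 29982 unnamed), of which 23434 matched RefSeq (GRCh38.p14) by Entrez identifier. Where several kept probes shared a gene, the one with the highest mean over the HMV-I arrays stands for it.

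The 6 HMV-I groups, 3 h included, were fitted together in limma 3.58.1 (R 4.3.3; lmFit and eBayes with trend, 12 residual degrees of freedom), two-sided, with Benjamini-Hochberg adjustment over all probes. HMV-I was compared with the other 5 lines on 1 mean per line, in the same way. The fits were tested on simulated data. The number of arrays limits the precision: the median 95% half-width was 0.20 for a beam and 0.28 for the beam difference.

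Named genes are up to 10 in each direction per comparison among called probes with 1 symbol (for each beam also with no overlap between the groups) by size of change, for shared changes by the smaller of both, and members of 23 gene lists (478 genes, 350 measured). With fewer than 3 called in a direction, the 3 with the smallest p were taken. The members and lists were chosen with earlier results of these data known. NR4A3's second probe, OTUD1 and GAREM1 were chosen after their values were seen. Alternatives were other normalizations, other filters on level, fewer arrays, a replicate block, array brightness as a covariate, and leaving out each array.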

Additional observations from a re-analysis of the deposited data

Results flagged for a closer look

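The 14 named genes whose change differed between beams by the test of the difference are listed here, as carbon-ion change minus X-ray change on the log2 scale. Beam and set cannot be told apart in these differences. FOS differed by 1.02, CCN1 by 0.85 and IL6 by 0.78 (adjusted p = 0.00237, 0.00136 and 0.00291). SPRTN differed by 0.85, FAM174A by 0.83 and ATF3 by 0.82. DUSP1 differed by 0.66, CD83 by 0.65, RGS16 by 0.61, PLPP5 by 0.59, NR4A1 by 0.57, OTUD1 by 0.54 and TIGAR by 0.51. CHAC1 differed by -0.63. The adjusted p of those after the first 3 lay between 0.0445 and 0.0464. With 3 arrays a group, no array was tested as an outlier within its group.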

How the results depend on the processing

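The counts of calls depended on the processing, and the causes were not tested. With median centring there were 193 calls after X-rays, 79 shared and 5 for the beam difference, and with values as deposited 188, 78 and 5. In the fit of 12 arrays there were 205 X-ray calls and 4 beam differences, with array brightness as a covariate 199 and 8, and without the filter on level 3 beam differences. The replicate block gave 9 beam-difference calls, against 18 without it, and moved no other count by over 1.5 times. The array numbers gave no clear pairing of irradiated with unirradiated arrays, judged on deviations from the group mean of each probe. These deviations correlated between same-numbered arrays at 0.066, 0.090 and 0.31 for carbon ions and at -0.0031, 0.038 and -0.15 for X-rays. Carbon-ion arrays numbered 3 correlated best with each other, and not every array correlated best with its own number. Leaving out 1 array in turn gave 384 to 1376 calls after carbon ions, 99 to 295 after X-rays, 3 to 36 for the beam difference and 58 to 105 shared. For HMV-I against the other lines, there were 2 carbon-ion calls with median centring and 10 to 15 without the arrays of 1 replicate number, and 4 X-ray calls with values as deposited, 12 without the filter on level and 6 to 9 without the arrays of 1 number. With the other scalings the split of higher and lower calls moved, to 104 and 84 after X-rays (values as deposited), and between the unirradiated sets to 8744 and 4834 (median centring) or 9345 and 4398 (values as deposited), against 6616 and 7205. Changes that reversed were near 0 and not called: CCN1 after X-rays was -0.014 to 0.13 over fits without 1 array, negative without unirradiated arrays 2 or 3 or irradiated array 2, DUSP1 after carbon ions was -0.023 to 0.067, negative without unirradiated array 1 or irradiated array 2, and GADD45B after carbon ions was 0.035 with median centring and 0.028 with values as deposited.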

Other observations

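Among 3 probes of SLC25A3, the mitochondrial phosphate carrier, 1 fell by -1.20 after carbon ions and -1.14 after X-rays (adjusted p = 1.31e-06 and 2.90e-06). The probe with the highest mean gave 0.16 and 0.15 and the third -0.13 and -0.05, neither called. These values were chosen after they were seen.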
